A study of Mus musculus with 10 samples.

Results

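The 5 chemokine receptor genes described here, Cx3cr1, Ccr2, Ccr6, Cxcr6 and Cxcr5, were measured in hippocampal microglia of mouse pups. They were chosen by their signal, as chemokine receptors whose counts exceeded the limit set by the negative control probes, and are 5 of the 545 immune genes on the panel and 5 of the 283 genes tested. The choice used the signal over background, but it was made with earlier results of these data known. For Cxcr5 that signal came from 4 BDS lanes and 1 control lane. The cells came from hippocampi of male Balb/c pups collected at postnatal day 14, with 5 control pups (numbers 1, 18, 40, 52 and 69) and 5 pups given brief daily separation (BDS; numbers 11, 17, 24, 38 and 59). In BDS each pup spent 15 min a day apart from its mother, over postnatal days 1 to 21 in the labels. The labelled days after 14 fall after these pups were collected. Each pup came from its own litter and gave 1 lane of an nCounter cartridge, in which fluorescent barcodes bound to amplified cDNA are counted directly.

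Chemokine receptors are G-protein-coupled receptors that steer immune cells along gradients of small secreted proteins. In the brain Cx3cr1 is the classic microglial member: neurons display its ligand, fractalkine, and the pair serves contact between neurons and microglia. Ccr2 calls monocytes out of the bone marrow and is widely used to tell them from microglia, while Ccr6, Cxcr6 and Cxcr5 are best known from lymphocytes.

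Lane depth framed every value. The housekeeping signal of a lane, the geometric mean of 6 housekeeping genes in raw counts, ran from 113 in control 52 to 1254 in BDS 17, an 11.1-fold range. Its log2 was higher by 1.23 in BDS than in control lanes (p = 0.0873, exact permutation test, two-sided, n = 5 a group). Normalized counts are raw counts scaled to that signal, log2 fold changes are BDS minus control, and a ± after one is its standard error. The negative limit of a lane is the mean plus 2 SD of its 8 negative probes. Among the 283 tested genes edgeR called 0% at an adjusted p under 0.05, whereas 28.3% had an unadjusted p under 0.05 (19.4% higher and 8.83% lower in BDS, or 55 and 25 genes). That balance depends on the scaling: it was 36 higher and 39 lower with TMM, 33 and 40 with median-of-ratios factors, 25 and 49 with Sdha left out of the housekeeping genes, and 24 and 41 on the authors' normalized values (limma). The values of the 5 control and 5 BDS lanes did not overlap in 4.59% of genes (3.53% higher and 1.06% lower in BDS).

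Of the 21 chemokine receptor genes on the panel, 16 exceeded the negative limit in at least 1 lane and 7 in at least 4 lanes, the requirement for testing. The tested genes were the 5 receptors named above, the chemerin receptor Cmklr1 and 1 further gene. Cx3cr1 and Ccr6 exceeded the limit in 10 lanes, Ccr2 and Cxcr6 in 9, missing control 52, and Cxcr5 in 5. Cxcr5 thus lay just inside the requirement, and it passed through 4 BDS lanes and 1 control lane. Just outside lay Cxcr2 and Ccrl1 with 3 lanes each. Ccr3, Ccr9, Ccr10 and Cxcr4 reached 2 lanes, and Ccrl2, Cxcr3 and Xcr1 1 lane. All 9 of these receptors exceeded the limit in BDS lanes alone, as did 81 of the 101 panel genes that reached 1 to 3 lanes. Ccbp2, Ccr4, Ccr7, Ccr8 and Cxcr1 stayed under the limit in every lane. The authors' own calls were wider, with 100% of samples above background for Ccr2 and Cxcr6 and 70% for Cxcr5.

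Of the receptor genes, 4 lie on mouse chromosome 9 and Ccr6 lies on chromosome 17. Cxcr6 and Ccr2 share the chemokine receptor cluster of chromosome 9, with 4 coding genes of the RefSeq annotation between them (Xcr1, Ccr1, Ccr1l1 and Ccr3), whereas 53 coding genes separate Cx3cr1 from Cxcr6. The bases upstream of Cx3cr1, Ccr2 and Cxcr6 are shown because the clearest differences were between the first of these genes and the other two. Each run holds the 250 bases before the annotated start on the gene's own strand, from RefSeq for GRCm38.p6, a C57BL/6J reference. Capitals mark GGAA or its reverse complement TTCC, the core bound by ETS factors such as PU.1, which directs macrophage genes. Cx3cr1 lies on the minus strand, at chr9:120068297-120068546. Ccr2 lies on the plus strand, at chr9:124101933-124102182, and Cxcr6 on the plus strand, at chr9:123806227-123806476.
Cx3cr1: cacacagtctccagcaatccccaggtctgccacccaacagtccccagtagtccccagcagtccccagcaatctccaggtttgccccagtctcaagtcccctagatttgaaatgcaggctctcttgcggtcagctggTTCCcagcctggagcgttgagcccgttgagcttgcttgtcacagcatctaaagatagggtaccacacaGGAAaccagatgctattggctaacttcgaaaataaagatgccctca
Ccr2: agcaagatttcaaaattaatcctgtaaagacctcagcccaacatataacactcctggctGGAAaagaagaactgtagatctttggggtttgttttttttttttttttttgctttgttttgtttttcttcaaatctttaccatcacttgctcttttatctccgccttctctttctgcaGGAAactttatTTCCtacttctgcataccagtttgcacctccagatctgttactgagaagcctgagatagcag
Cxcr6: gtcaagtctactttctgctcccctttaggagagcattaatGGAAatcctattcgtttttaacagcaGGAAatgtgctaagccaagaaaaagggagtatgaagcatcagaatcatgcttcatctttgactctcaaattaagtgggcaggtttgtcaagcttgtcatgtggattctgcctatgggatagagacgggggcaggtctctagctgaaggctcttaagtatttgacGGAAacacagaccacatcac

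The GGAA core was found 2 times upstream of Cx3cr1, 3 times upstream of Ccr2 and 3 times upstream of Cxcr6, counting both strands. It was present in 93.4% of 32851 upstream windows of the same length, with a median of 3 matches, so these 3 windows held about as many as most. The longer PU.1-type letters GAGGAA, found in 23.3% of windows, were in none of the 3 runs, and 1 of the 2 Ccr6 windows held them. Neither TGANTCA, the AP-1 type of site, present in 6.75% of windows, nor the interferon-response type, GAAA repeated after a gap of 2 bases and present in 2.98%, was in any of the 5 windows that RefSeq gives for Cx3cr1, Ccr2, Cxcr6 and Ccr6. A match gives letters only, and no binding was measured.

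Cx3cr1, the fractalkine receptor, gave the highest counts of the 5 receptors and the 8th highest mean share of lane counts among the tested genes; probes differ in efficiency, so this is an order of signal and not of expression. Its normalized counts were 8942, 9917, 8220, 19961 and 13401 in control pups 1, 18, 40, 52 and 69, and 7290, 6830, 7509, 7871 and 9429 in BDS pups 11, 17, 24, 38 and 59. Control 52 stood highest, at 2.43 times control 40, and control 69 came next. All 5 BDS lanes lay below the control mean, but BDS 59 exceeded controls 1 and 40, so the groups overlapped. The mean was 12088 ± 4829 (SD, n = 5) in control and 7786 ± 993 in BDS lanes, and the log2 fold change was -0.63 ± 0.23 (edgeR, unadjusted p = 0.0147, adjusted p = 0.126). Control 52 and control 69 were the lanes of lowest depth. Without both the control mean was 9026 ± 851 (SD, n = 3) and the log2 fold change -0.21 ± 0.14 (edgeR, adjusted p = 0.303), and with lane depth as a covariate it was -0.13 ± 0.19 (edgeR, adjusted p = 0.716).

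Ccr2, the monocyte receptor for Ccl2 and related chemokines, was counted at a level far below that of Cx3cr1. Its normalized counts were 52.5, 67.5, 92.4, 81.6 and 81.5 in control pups 1, 18, 40, 52 and 69, and 106, 109, 89.6, 118 and 142 in BDS pups 11, 17, 24, 38 and 59. Only BDS 24 and control 40 crossed, and every BDS lane exceeded the control mean. Means were 75.1 ± 15.4 (SD, n = 5) in control and 113 ± 19.1 in BDS lanes. The log2 fold change was 0.59 ± 0.23 (edgeR, unadjusted p = 0.0232, adjusted p = 0.137), it stayed at 0.59 ± 0.25 with lane depth as a covariate (edgeR, adjusted p = 0.369), and it was 0.66 ± 0.26 without controls 52 and 69 (edgeR, adjusted p = 0.121). The value of control 52 rests on 16 raw counts, with an exact Poisson 95% interval of 9.15 to 26.0 that covers counting error only, and lies under that lane's negative limit. The negative probes averaged 69.5% of that count, against 3.80% in BDS 17. With the negative mean of each lane subtracted, the log2 fold change was 0.90 ± 0.32 (edgeR, adjusted p = 0.120).

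Ccr6, the receptor for Ccl20 known from B cells and T helper subsets, had the second highest signal of the 5 and ranked 16th among all tested genes. Its normalized counts were 4492, 4673, 6190, 4090 and 4810 in control pups 1, 18, 40, 52 and 69, and 4733, 4493, 4467, 5605 and 4887 in BDS pups 11, 17, 24, 38 and 59. The BDS range lay inside the control range, with control 40 and BDS 38 highest in each group. Means were 4851 ± 796 (SD, n = 5) in control and 4837 ± 463 in BDS lanes, with a coefficient of variation of 16.4% in control and 9.57% in BDS lanes. The log2 fold change was -0.005 ± 0.16, and 2 standard errors either way span -0.33 to 0.32 (edgeR, adjusted p = 0.990). Raw Ccr6 counts ran from 802 in control 52 to 11388 in control 40, at least 32.9 times the lane's negative limit.

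Cxcr6, the receptor for membrane-bound and soluble Cxcl16 and a marker of tissue-resident T and NK cells, was the only one of the 5 whose groups did not overlap, where 4.59% of tested genes did not (3.53% higher in BDS). Its normalized counts were 107, 141, 149, 61.2 and 122 in control pups 1, 18, 40, 52 and 69, and 155, 341, 170, 183 and 226 in BDS pups 11, 17, 24, 38 and 59. The highest control lane, 40, lay just under the lowest BDS lane, 11, and BDS 17, the deepest lane, stood above the rest. Means were 116 ± 34.8 (SD, n = 5) in control and 215 ± 75.3 in BDS lanes, with a log2 fold change of 0.85 ± 0.28 (edgeR, unadjusted p = 0.00768, adjusted p = 0.0964). It was 0.62 when BDS 17 was left out, 0.47 ± 0.27 when depth entered the fit as a covariate (edgeR, adjusted p = 0.372), and 0.46 ± 0.22 without controls 52 and 69 and BDS 17 (edgeR, adjusted p = 0.219). Control 52 gave 12 raw Cxcr6 counts, under its negative limit, with an exact Poisson 95% interval of 6.20 to 21.0. DESeq2 on the same scaling gave an adjusted p of 0.0390, and edgeR without control 40 an adjusted p of 0.0434. In those fits 25 and 48 of the 283 tested genes had an adjusted p under 0.05, so passing there was not particular to Cxcr6.

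Cxcr5, the Cxcl13 receptor that guides B cells and follicular helper T cells into follicles, was close to background. Its raw counts were 9, 21, 42, 5 and 3 in control pups 1, 18, 40, 52 and 69, and 10, 80, 42, 57 and 50 in BDS pups 11, 17, 24, 38 and 59. Only control 40 and BDS 17, 24, 38 and 59, the 5 deepest lanes, exceeded their negative limits. Normalized means were 17.3 ± 7.43 (SD, n = 5) in control and 27.6 ± 10.01 in BDS lanes, with overlapping groups and a log2 difference of 0.69 ± 0.37 (edgeR, adjusted p = 0.219). In the controls under the limit these values carry no level above that of the negative probes.

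**Figure D1:**
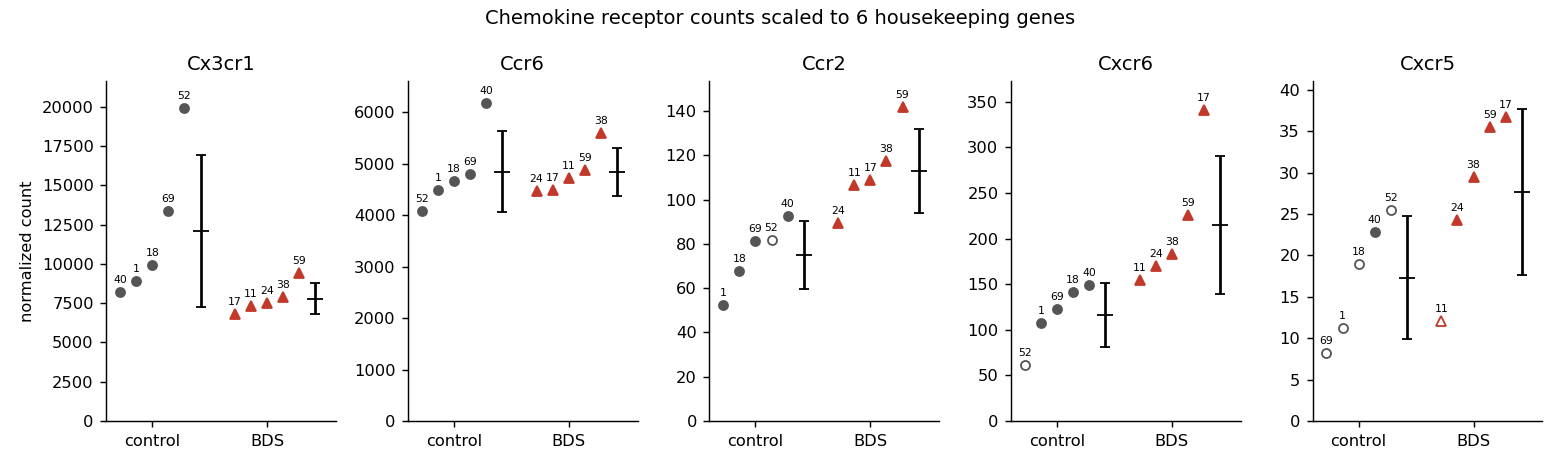
Normalized counts (raw counts scaled to 6 housekeeping genes, linear axes from 0) of 5 chemokine receptors in 5 control lanes (grey circles) and 5 BDS lanes (red triangles), with pup numbers; open symbols lie under the lane's negative limit, and the bar to the right of each group is the mean ± SD. Cxcr6 groups do not overlap, Cx3cr1 is highest in controls 52 and 69, and Ccr6 covers 4090 to 6190 in control and 4467 to 5605 in BDS lanes.

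Against the whole table, 3 of the 5 receptors had an unadjusted edgeR p under 0.05, Ccr2 and Cxcr6 higher and Cx3cr1 lower in BDS, and 0 of the 5 an adjusted one; over all tested genes the unadjusted share was 28.3% (19.4% higher, 8.83% lower). The authors' deposited table, whose values match a scaling without Sdha, gave BDS over control ratios of 0.55 for Cx3cr1 (p = 0.0709), 1.32 for Ccr2 (p = 0.0457), 0.88 for Ccr6 (p = 0.0555), 1.64 for Cxcr6 (p = 0.0463) and 1.39 for Cxcr5 (p = 0.2280), by the authors' own test and not adjusted. Cmklr1, which binds chemerin and not a chemokine, differed by 0.62 ± 0.22 on the log2 scale (edgeR, adjusted p = 0.126). Over the 7 tested receptor genes the median log2 fold change was 0.59, against 0.09 over all tested genes. The 7 include Cxcr5, which passed the filter mainly through its BDS lanes. The median over all tested genes was -0.04 with TMM and -0.09 without Sdha, scalings under which the receptor median was not taken. In bulk RNA of this kind, fewer cells of a type and less RNA per cell cannot be told apart.

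Raw counts set against the housekeeping signal showed how each receptor followed depth. A gene in proportion to the housekeeping genes has a slope of 1 on log2 axes, and the median slope of the tested genes was 1.04 over the 10 lanes. Cx3cr1 had a slope of 0.63, the 33rd lowest of 283. Over the control lanes alone it was 0.61, but over the BDS lanes, which span less depth, it was 0.96, near proportion. Its raw counts spanned 3.88-fold while the housekeeping signal spanned 11.1-fold. Cxcr6 lay at the other end, with a slope of 1.48 over all lanes, 1.34 over control and 1.51 over BDS lanes. Ccr6 (1.08) and Ccr2 (1.15) were near the median, and Cxcr5 (1.33) is bounded by background at the low end. No background was subtracted for these slopes, so Ccr2 and Cxcr6 are bounded there too. Negative probes averaged 69.5% of the Ccr2 count and 92.7% of the Cxcr6 count in control 52. The Ccr2 slope near 1 therefore does not show that Ccr2 followed depth in proportion. After scaling, a slope under 1 gives lower values in deeper lanes and a slope over 1 gives higher ones. Depth and group moved together, so their parts in the differences of these receptors cannot be told apart.

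**Figure D2:**
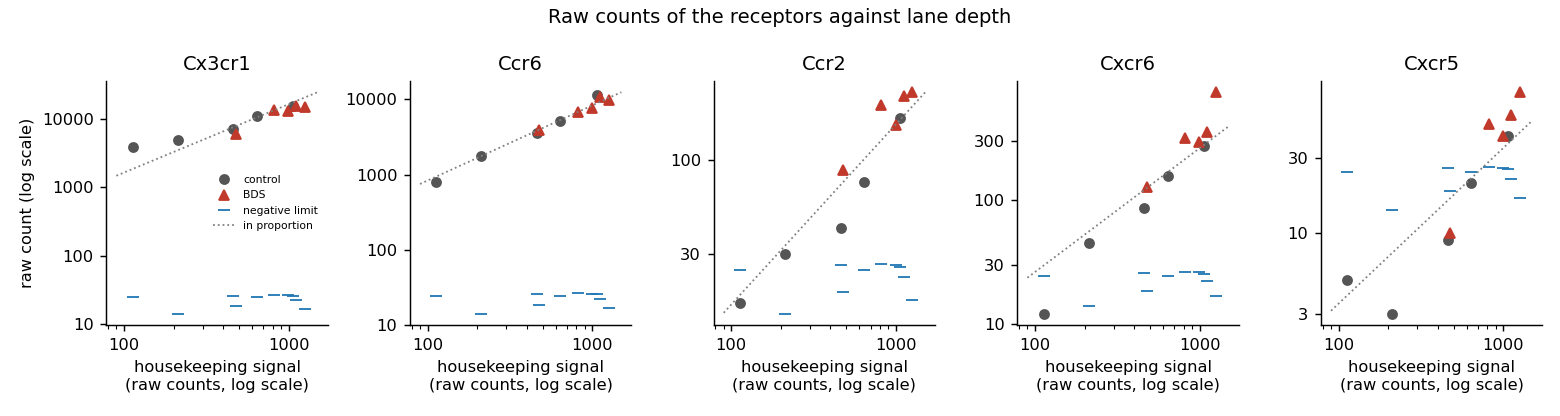
Raw counts of each receptor against the lane's housekeeping signal in raw counts, both axes logarithmic; grey circles are control and red triangles BDS lanes, blue dashes the negative limit of each lane, and the dotted line a count in proportion to the housekeeping signal. Cx3cr1 lies above the line in the shallowest lanes (slope 0.63), Cxcr6 below it (slope 1.48), and Cxcr5 crosses the negative limit.

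Lanes of like depth gave a narrower view, chosen after the values were seen and without a test. Control 1 and BDS 11 had housekeeping signals of 461 and 477, and control 40 (1060) lay between BDS 24 (997) and BDS 38 (1113). For Cx3cr1 the log2 difference was -0.29 between BDS 11 and control 1, -0.13 between BDS 24 and control 40, and -0.06 between BDS 38 and control 40. For Cxcr6 the same pairs gave 0.53, 0.19 and 0.30. For Ccr2 they gave 1.02, -0.04 and 0.35. Thus Cx3cr1 was lower and Cxcr6 higher in the BDS lane of each pair, by less than over the whole groups. Neither direction could have differed. Every BDS lane exceeded every control lane in Cxcr6, and the BDS lanes of these pairs lay below every control lane in Cx3cr1. Control 40, used more than once, was the highest control for Cxcr6 and the lowest for Cx3cr1, which made its differences small. Whether the differences hold at like depth was therefore not tested by these pairs.

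Ratios between receptors inside a lane do not depend on how lanes are scaled. In the Cx3cr1 over Ccr2 ratio, controls 1, 18, 40, 52 and 69 had 170, 147, 89.0, 245 and 164 raw Cx3cr1 counts for each Ccr2 count, and BDS lanes 11, 17, 24, 38 and 59 had 68.5, 62.7, 83.8, 67.0 and 66.5. Every BDS lane lay below every control lane, with control 40 and BDS 24 nearest. The Ccr2 count of control 52 was under its negative limit, so the 245 of that lane has a denominator at background. The log2 ratio was 7.24 ± 0.50 (SD, n = 5) in control and 6.11 ± 0.16 in BDS lanes. The difference was -1.13, with an exact two-sided permutation p of 0.00794, the smallest that 5 against 5 lanes allow, and an adjusted p of 0.183 over all 39903 pairs of tested genes. It was -0.77 with the housekeeping signal held in a least squares fit, -0.98 without control 52 and -1.61 with the negative mean of each lane subtracted.

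The Cx3cr1 over Cxcr6 ratio was 83.2, 70.1, 55.2, 326 and 110 in controls 1, 18, 40, 52 and 69, and 47.1, 20.0, 44.2, 43.1 and 41.8 in BDS 11, 17, 24, 38 and 59. Here too the groups did not overlap, control 52 lay far above and BDS 17 far below the rest, and 4 BDS lanes sat close together. The 326 of control 52 rests on 12 Cxcr6 counts, of which the negative probes' mean amounts to 92.7%. The log2 difference was -1.42 (exact permutation p = 0.00794, adjusted p = 0.183), -0.59 with the housekeeping signal held, -1.03 without control 52 and -2.22 with the negative mean subtracted. In that last setting the 12 Cxcr6 counts of control 52 stood against a negative mean of 11.1. The remainder was raised to a floor of 1, so the -2.22 rests heavily on that lane. Ccr6 over Cxcr6 was the third ratio whose groups did not overlap, with a log2 difference of -0.86 (exact permutation p = 0.00794, adjusted p = 0.183) and -0.58 with the housekeeping signal held. Without control 52 it was -0.72, and with the negative mean subtracted, and the same floor in control 52, it was -1.65. Cx3cr1 over Ccr6 did overlap, at 1.99, 2.12, 1.33, 4.88 and 2.79 in controls and 1.54, 1.52, 1.68, 1.40 and 1.93 in BDS lanes in the same order. Its log2 difference was -0.57 (exact permutation p = 0.103) and -0.01 with the housekeeping signal held. Ccr2 over Cxcr6 overlapped between the groups and differed by -0.29 on the log2 scale (exact permutation p = 0.492).

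In all, 3 of the 10 receptor pairs had ratio groups that did not overlap, where 4.05% of all pairs of tested genes did, and 5 of 10 had an exact permutation p under 0.05, where 21.6% of all pairs did. The 10 pairs share genes and are not independent. Cx3cr1 stood apart from 57 of the other 282 tested genes in this way, the 5th most of all genes, Cxcr6 from 37, Ccr2 from 24, Ccr6 from 19 and Cxcr5 from 1, while the median gene did from 7.

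**Figure D3:**
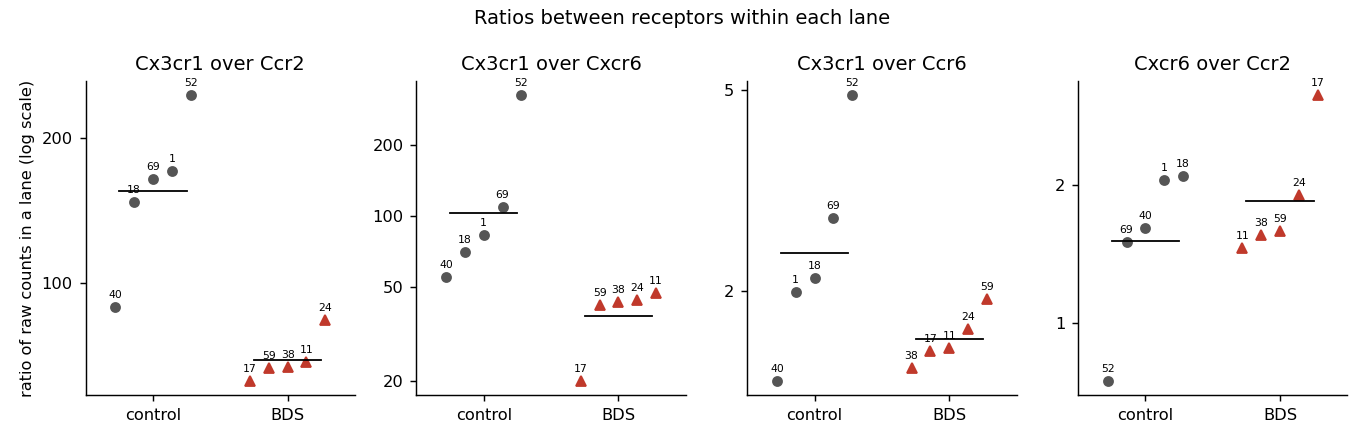
Ratio of raw counts of pairs of receptors in each lane (log axes), for control (grey circles) and BDS lanes (red triangles) with pup numbers; black lines are geometric means. Cx3cr1 over Ccr2 and Cx3cr1 over Cxcr6 do not overlap between groups, whereas Cx3cr1 over Ccr6 and Cxcr6 over Ccr2 do.

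The labelled cell type was checked on its markers. All 12 other microglia genes of the marker list on the panel, among them Csf1r, Itgam, Trem2 and Tyrobp, exceeded the negative limit in at least 4 lanes, and together they took 31.6 to 38.2% of lane counts in control and 34.0 to 38.1% in BDS lanes. Set against the mean log2 count of these 12 genes, Cx3cr1 was lower in BDS lanes by 0.85 on the log2 scale (1.13 ± 0.48 in control and 0.27 ± 0.24 in BDS lanes, SD, n = 5; exact permutation p = 0.00794), and the groups did not overlap. With the housekeeping signal held the difference was -0.44. Each of the 13 microglia genes was set against the others in the same way, and Cx3cr1 was the only one of them with groups apart. Of the 271 tested genes outside the 12, Cx3cr1 included, 13 (4.8%) stood apart against the same mean. Itgam, the integrin chain CD11b, came next with -0.82 (exact permutation p = 0.0238), while the leukocyte phosphatase Ptprc was higher by 0.72 (p = 0.0397) and the complement gene C1qa by 0.57 (p = 0.0317).

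Markers of cells in which Ccr2, Ccr6, Cxcr6 and Cxcr5 are best known were mostly at background. Of the 12 other B-cell genes on the panel, 4 exceeded the limit in at least 4 lanes (Cd79b, Blnk, Tnfrsf13b and Tnfrsf17), and 7, with Ms4a1, Pax5 and Cr2 among them, exceeded it in no lane. Their summed normalized counts were 1091 to 1912 in control and 1436 to 1994 in BDS lanes. Of 26 T and NK cell genes 5 exceeded the limit (Tcf7, Il7r, Klrk1, Prf1 and Icos), and 13 did so in no lane, including Cd3e, Cd3d and Zap70. Their sums were 1300 to 2544 in control and 1258 to 2087 in BDS lanes. Of 10 monocyte and neutrophil genes only Csf3r exceeded the limit in 4 lanes or more, and S100a8 and S100a9 did in 1 lane each. The sums of that list were 1562 to 3575 in control and 1110 to 1797 in BDS lanes, with medians of 1985 and 1222. Of 5 dendritic cell genes only Batf3 exceeded the limit in 4 lanes or more, and the sums were 94.6 to 331 in control and 101 to 156 in BDS lanes. Neither Cd163 nor Msr1, genes of brain border macrophages, exceeded the limit in any lane, and all 3 vessel genes did in at least 4 lanes, with sums of 714 to 1674 in control and 980 to 1070 in BDS lanes. These sums include genes under the limit and can rest mostly on a single gene, so they do not measure a cell type. In normalized counts the negative limit was 124 in control 52, against 37.8 in control 69, the next highest. The sums of 3575 and 331 both came from control 52. The T and NK cell sum of 2544 came from control 40, where Il7r alone gave 2144. What part, if any, such cells had in the counts of the receptors was not tested beyond these levels.

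Most known ligands of these receptors were at background in the sorted cells. Cx3cl1, the fractalkine that neurons make, stayed under the negative limit in every lane, as did Ccl20, the ligand of Ccr6, Cxcl13, the ligand of Cxcr5, and Ccl8, a ligand of Ccr2. Ccl7, another Ccr2 ligand, exceeded it in 3 BDS lanes only. Ccl2 exceeded it in 9 lanes, with means of 57.1 ± 46.5 (SD, n = 5) in control and 60.4 ± 29.5 in BDS lanes, a log2 difference of 0.28 ± 0.49 (edgeR, adjusted p = 0.733). Ccl12 exceeded it in all 10 lanes, with means of 955 ± 285 in control and 770 ± 379 in BDS lanes, a log2 difference of -0.30 ± 0.31 (edgeR, adjusted p = 0.522). Cxcl16, the ligand of Cxcr6, was not among the panel genes analysed here. Of the 26 chemokine genes on the panel 7 were tested, with a median log2 fold change of -0.30.

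Genes that carry signals downstream of chemokine receptors were listed as kinases, STAT factors and NF-kB components. Of 37 listed, 17 were on the panel and all 17 were tested. Higher values in BDS were found for 13 and lower for 4, with a median log2 fold change of 0.30; over all tested genes 158 of 283 (55.8%) were higher, a number that was 134 with TMM and 131 without Sdha. At an unadjusted edgeR p under 0.05 there were 4 higher and 1 lower of the 17, against 19.4% and 8.83% of all tested genes under the same scaling, and 0 at an adjusted p under 0.05. The smallest p belonged to Jak3, a kinase of cytokine receptors, at 1.07 ± 0.27 (edgeR, adjusted p = 0.0642). The IkB kinase genes Chuk and Ikbkg had log2 fold changes of 0.68 ± 0.21 and 0.58 ± 0.25, and the tyrosine kinase Src of -0.61 ± 0.22 (edgeR, adjusted p = 0.0904, 0.156 and 0.126). The transcription factor Stat5a had 0.46 ± 0.23 (edgeR, adjusted p = 0.182).

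The genes most like each receptor were found by Pearson's r of log2 normalized counts over the 10 lanes, which share the scale factor of their lane and the spread in depth. For Cx3cr1 they were the Fc receptor Fcgr3 (r = 0.967), the adaptor Hcst (0.967) and the hypoxia factor Hif1a (0.965), all of which were highest in control 52. Hcst, however, was at background there, at 51.0 against a negative limit of 124 in normalized counts. It was also under the limit in controls 1, 18 and 69 and in BDS 11, so its r does not show like expression. Raw counts of Fcgr3, Hcst and Hif1a had slopes of -0.087, 0.56 and 0.73 on the housekeeping signal, against 0.63 for Cx3cr1. Slopes under 1 give higher scaled values in shallow lanes. Like expression of these genes therefore cannot be told apart from a shared dependence on depth. For Ccr6 the most alike genes were the interleukin-7 receptor chain Il7r (0.877), Cd14 (0.847) and the oxysterol receptor Gpr183 (0.798). For Ccr2 they were the oxidase subunit Ncf4 (0.930), Casp2 (0.903) and Ifngr2 (0.885). Cxcr6 ran closest to the transcription factor Ikzf1 (0.935), the kinase Mapkapk2 (0.928) and Jak3 (0.921), and Cxcr5 to Tlr1 (0.828), Tcf4 (0.809) and Il13ra1 (0.802). Ikzf1, Mapkapk2 and Jak3 had depth slopes over 1 (1.21, 1.27 and 1.49), as Cxcr6 did (1.48), so depth cannot be told apart there either. Cxcr5 exceeded the negative limit in 5 lanes only, so its r values, also those with other receptors, do not show like expression. Among the receptors themselves, Cx3cr1 and Cxcr6 ran opposite to each other (r = -0.80), Ccr2 with Cxcr6 (0.60) and Cxcr5 (0.60), and Ccr6 with none of them beyond 0.33 in the positive direction. The depth slopes of Cx3cr1 (0.63) and Cxcr6 (1.48) lie on either side of 1, and Cxcr6 was at background in control 52. Their r of -0.80 therefore cannot be told apart from depth.

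**Figure D4:**
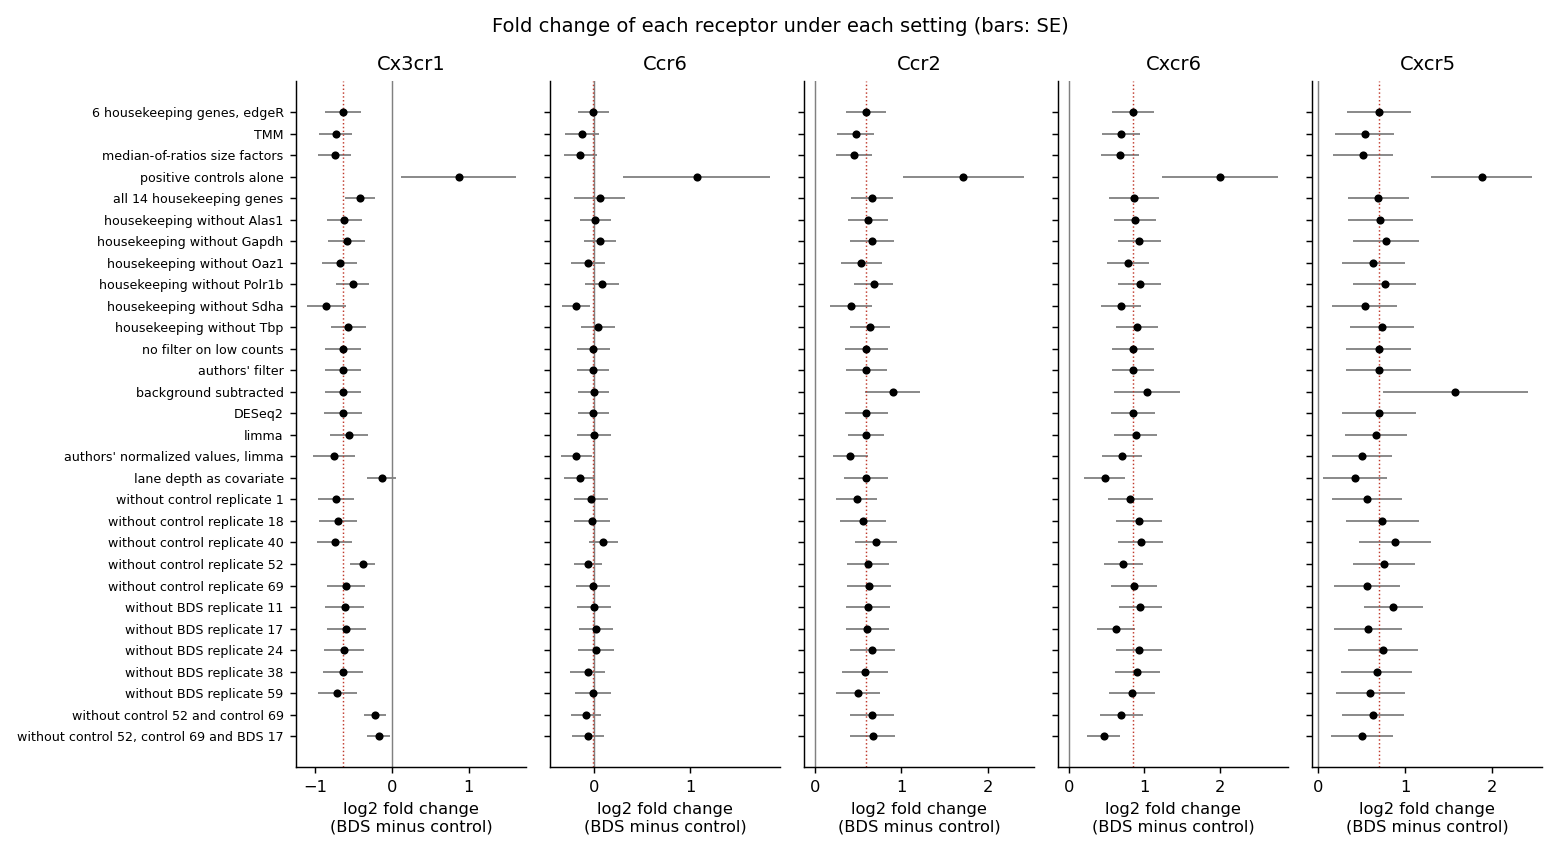
Log2 fold change (BDS minus control, horizontal axis) of each receptor under each processing setting (rows), with bars of 1 standard error; the solid grey line is 0 and the dotted red line the value of the top row. Ccr2 and Cxcr6 stay above 0 in all rows, Cxcr5 does too but is at background in 4 of 5 controls, Ccr6 lies around 0 in most, and Cx3cr1 moves from -0.63 to -0.13 with lane depth as a covariate and to 0.87 with scaling to positive controls alone.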

How the data were processed

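Hippocampal microglia of 10 pups were isolated by Percoll gradient and FACS; 2 ng of RNA was made into cDNA and amplified by 5 rounds of PCR, per the labels' protocols. A first deposited table holds raw barcode counts per probe; the software that counted them is not given in the sources used here. In the other, deposited by the authors, values are normalized and taken as a score, scaled by the authors to positive controls and housekeeping genes. Per the file headers it also holds the percent of samples above background, the BDS over control ratio of group means, and an unadjusted p-value of a t-test; its form is not stated. The series' design text speaks of 5 housekeeping genes and names 6. The deposited scores matched a scaling to the 5 without Sdha (SD of the log2 difference between lanes 2.93e-05).

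Here lanes were scaled to the geometric mean of all 6 (Alas1, Gapdh, Oaz1, Polr1b, Sdha and Tbp). The 283 of 545 genes that exceeded the negative limit (mean plus 2 SD) in 4 or more of the 10 lanes were fitted together by edgeR 4.0.16 under R 4.3.3, using its two-sided quasi-likelihood test with no covariate. All 283 p-values entered the Benjamini-Hochberg adjustment. A standard error is the log2 fold change divided by the root of F. Ratios are log2 of raw counts plus a pseudocount of 1, tested by exact two-sided permutation over all 252 assignments of lanes. Where the negative mean was subtracted for a ratio, the pseudocount was left out and values under 1 were set to 1. Their p-values were adjusted over all 39903 pairs of tested genes and not over the 10 receptor pairs, as had been planned. limma 3.58.1 and DESeq2 1.42.0 served as alternatives. The fit was first tested on simulated data with known changes.

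Depth was 76237 to 968930 endogenous counts per lane. Counts follow PCR and carry no molecular identifiers, so intervals cover counting error only. The receptors and gene lists were chosen with earlier results of these data known. Named were the receptors above the limit in any lane, their known ligands, the 3 genes most like each receptor, and up to 6 signalling genes with the smallest p; Itgam, Ptprc, C1qa and the marker genes were named after their values were seen. A further receptor gene that passed the filter and a few other listed genes are not reported here. Alternatives were other scalings, filters, background subtraction, tools, depth as a covariate and left-out lanes; the least squares fit of ratios on depth was added after seeing the data.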

Additional observations from a re-analysis of the deposited data

Results flagged for a closer look

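Among 36 groups of 5 lanes checked (normalized counts of the receptors, their ratios and related values), 3 held a lane whose gap to its nearest neighbour exceeded 0.71 of the group's range; chance alone gives about 1 in 20. All 3 were ratios in BDS lanes. The log2 ratio of Cx3cr1 over Ccr2 in BDS 24 was 6.38, above the other BDS lanes. The log2 ratio of Cx3cr1 over Cxcr6 in BDS 17, the deepest lane, was 4.32, below the other BDS lanes. The log2 ratio of Ccr2 over Cxcr5 in BDS 11, whose Cxcr5 count of 10 was under the negative limit, was 3.02, above the other BDS lanes.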

How the results depend on the processing

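Ccr2 and Cxcr6 kept a positive log2 fold change under all 29 alternatives (0.41 to 1.72 and 0.46 to 2.00). Cxcr5 ran from 0.42 to 1.88, but 4 of 5 controls were at background and it was tested through its BDS lanes, so its direction is no sign of stability. Cx3cr1 kept a negative one under 28, down to -0.85 without Sdha; with positive controls alone, which moved the median of all genes to 1.35, it was 0.87 and Cxcr5, with the same limit, 1.88 (edgeR, adjusted p = 0.0344), in a fit with 128 genes higher and 0 lower at an unadjusted p under 0.05. Over left-out lanes Cx3cr1 ran from -0.74 to -0.38, Ccr6 from -0.063 to 0.099, Ccr2 from 0.48 to 0.70, Cxcr6 from 0.62 to 0.95 and Cxcr5 from 0.56 to 0.88. Without control 40, Cx3cr1 (edgeR, adjusted p = 0.0425) and Cxcr6 (0.0434) passed; with DESeq2, Cxcr6 passed (0.85, adjusted p = 0.0390). The sign of Ccr6 turned under 11 alternatives: 1.07 with positive controls alone, 0.064 with all 14 housekeeping genes, 0.015, 0.061, 0.085 and 0.044 without Alas1, Gapdh, Polr1b and Tbp, 0.0051 with limma, and 0.10, 0.003, 0.02 and 0.02 without control 40, BDS 11, BDS 17 and BDS 24.

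Genes at an adjusted p under 0.05 (edgeR: 0 of 283, with 80 at an unadjusted p under 0.05) numbered 14 with positive controls alone, 12 without Gapdh, 15 without Polr1b, 25 with DESeq2, and 0 to 48 over left-out lanes (48 without control 40, 19 without BDS 11). Those at an unadjusted p under 0.05 numbered 128 with positive controls alone, 139 with no filter, 36 with depth as a covariate, and 45 to 108 over left-out lanes (45 without BDS 17).

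Ratios with groups apart numbered 3 or 4 under 13 alternatives, and Cx3cr1 over Ccr2, Cx3cr1 over Cxcr6 and Ccr6 over Cxcr6 kept their direction under all 14, though both ratios over Cxcr6 were over 1.5 times larger with background subtracted (-2.22 and -1.65), and Cx3cr1 over Cxcr6 was smaller with depth held (-0.59). With background subtracted the Cxcr6 count of control 52 was set to the floor of 1, so the larger values rest heavily on that lane. Cx3cr1 over Cxcr5 lost its exact permutation p under 0.05 with background subtracted (-2.15, p = 0.0635) and without controls 52 and 69 (-0.79, p = 0.107). Cx3cr1 over Ccr6 gained it without control 40 (-0.78, exact permutation p = 0.0159). Ccr2 over Cxcr5 turned with background subtracted (-0.53), with no pseudocount (-0.10), and over left-out lanes (-0.23 to 0.23); Ccr2 over Cxcr6 without controls 52 and 69 (0.040) and with depth held (0.18); Cxcr6 over Cxcr5 over left-out lanes (-0.085 to 0.52). The causes were not tested. No paired analysis was possible because control and BDS pups share no numbers and came from different litters. Depth limits Cxcr5, and Ccr2 and Cxcr6 in control 52.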
